A study of Homo sapiens with 10 samples.

Results

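The RNA-seq libraries compared here were the 4 labelled enCRISPRi-LK_sgHS2 or enCRISPRi-KL_sgHS2 and the 2 labelled dCas9-KRAB_sgHS2, chosen by their labels and making up 6 of the 10 libraries of the series. The comparison asks what changes in the transcriptome when LSD1 is, according to the labels, added to KRAB at the same enhancer. All libraries came from K562, an established erythroleukemia line that expresses embryonic and fetal β-like globin, so the results describe 1 transformed line and not normal erythroid cells. Each group had 2 libraries.

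According to the published description, the cells labelled K expressed dCas9 fused to the KRAB repressor domain. By the same description, those labelled LK expressed dCas9 fused to LSD1, with KRAB brought in through the MCP protein that binds MS2 hairpins in the sgRNA. Those labelled KL were described with the opposite arrangement, KRAB on dCas9 and LSD1 on MCP. All 3 groups carried the pool of sgRNAs against the HS2 enhancer. Cells positive for the sgRNA reporter zsGreen1 had been sorted, and dCas9 expression was switched on with doxycycline. The other 4 libraries, used only to place the levels, were 2 labelled dCas9-LSD1_sgHS2 (L) and 2 labelled sgGal4, a nontargeting sgRNA. The published legend counts the libraries of a group as experiments, and neither it nor the labels say whether each had its own transduced culture. Each p-value measures the spread between these libraries, part of which may be technical.

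HS2 is a DNase I hypersensitive site of the β-globin locus control region, the cluster of distal elements that drives transcription of the β-like globin genes in erythroid cells. KRAB recruits TRIM28, the methyltransferase SETDB1 and HP1 proteins, which set up chromatin marked by H3K9 methylation. LSD1, the product of KDM1A, removes methyl groups from H3K4 within the CoREST complex, which also holds histone deacetylases.

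Between the start of HBE1 and OR51B4, GRCh37 held 1 tandem of the NF-E2 motif with its copies spaced by 3 bases, searched on both strands, the site by which the core of HS2 is known. The 300 bases around it lie at chr11:5301841-5302140 and are printed on the minus strand, the strand of the globin genes, with motif matches on either strand in capitals. They overlap no annotated exon and lie inside long annotated transcripts of HBE1 and HBG2. The positions of the individual sgRNAs were not used here.

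HS2: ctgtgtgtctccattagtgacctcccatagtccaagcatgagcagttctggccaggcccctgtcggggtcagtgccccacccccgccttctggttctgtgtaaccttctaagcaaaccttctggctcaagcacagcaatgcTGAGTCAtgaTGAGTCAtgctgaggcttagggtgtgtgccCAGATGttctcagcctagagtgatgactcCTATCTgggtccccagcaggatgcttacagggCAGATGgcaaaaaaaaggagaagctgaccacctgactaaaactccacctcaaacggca

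The motif TGAGTCA, shared by NF-E2 and AP-1 factors, occurred 2 times in this stretch, both within the tandem match, and was present on either strand in 4.95% of 35116 RefSeq promoters of the same length (GRCh38.p14). The tandem form was present in 2 of those promoters (0.0057%). The GATA factor motif AGATAG matched 1 time in the stretch and was in 6.63% of promoters. Its other form searched, AGATAA, had 0 matches there and was in 10.3% of promoters. The E-box form CAGATG matched 2 times and was in 14.7% of promoters. These are matches of letters and not measured binding. From the tandem match, the start of HBE1 lies 10808 bases downstream, that of HBG2 25972, HBG1 30896, HBD 46270 and HBB 53682 bases.

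The labels were first read against the genes of the 2 effectors. ZNF10, the zinc finger gene from which the commonly used KRAB domain was taken, was at 1.18 and 3.80 TPM under the label K. It was at 36.8 and 31.5 TPM under LK and at 365 and 359.9 TPM under KL. With sgGal4 it was at 0.97 and 1.89 TPM, and in the libraries labelled L at 128 and 136 TPM. Thus the libraries labelled for dCas9-KRAB alone lay near the nontargeting control, and the 4 dual-effector libraries lay above both of them without overlap.

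KDM1A, which encodes LSD1, gave a different picture. It was at 29.2 and 27.7 TPM with the label K, at 27.4 and 30.6 TPM with LK, and at 26.8 and 26.6 TPM with KL. The dual and K libraries overlapped, with a log2 difference of -0.03 (95% interval -0.45 to 0.38). In the libraries labelled L, KDM1A stood at 105 and 84.2 TPM, against 25.2 and 33.5 TPM with sgGal4. A rise of the LSD1 transcript with the labelled addition of LSD1 was therefore not measured, and a rise of ZNF10 was measured in libraries whose control already carries KRAB by its label. Whether the deposited values include transcripts of the introduced constructs was not tested. ZNF10 was also high in the libraries labelled for LSD1 alone, against their label. Whether labels were exchanged was not tested. The groups are called below by their labels, and each direction rests on those labels.

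**Figure D1:**
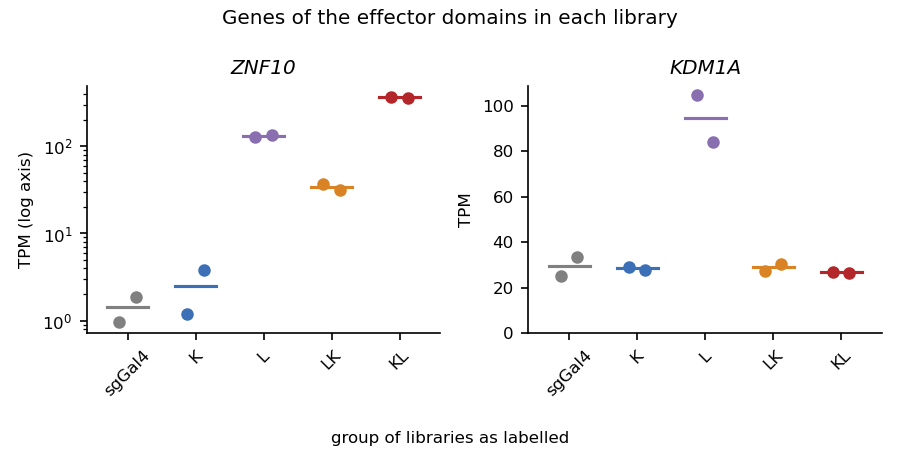
TPM of ZNF10 (left, log axis) and KDM1A (right, linear axis) in each of the 10 libraries, by labelled group; points are libraries and bars are group means. ZNF10 is high in the libraries labelled L, LK and KL and low in those labelled K and sgGal4, and KDM1A is high only in the 2 libraries labelled L.

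The label K562 was read against markers of this line. Of 12 erythroid and K562 markers examined, 0 were at 0 throughout the 6 libraries, and 10 exceeded 10 TPM in every one. HBZ was the most abundant. GATA1, the erythroid master regulator, was listed at 0 in all 10 libraries, so its level could not be read. Among markers of other blood lineages, 4 of 7 for megakaryocytes, 4 of 9 for granulocytes and monocytes, and 3 of 5 for lymphocytes were at 0 in all 6 libraries. The summed level of these markers was at most 6.31, 16.2 and 21.3 TPM in any of the 6 libraries, and the most abundant were ITGA2B, PRG2 and CD3D. The keratins KRT8 and KRT18 and the adhesion gene EPCAM were above 10 TPM in all 6 libraries, and fibroblast and epithelial markers together came to 204 to 319 TPM.

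Over the 10127 genes averaging 1 TPM or more in the 10 libraries, log2(TPM + 1) values correlated at 0.957 to 0.958 for the pairs of an LK and a K library and at 0.941 to 0.945 for those of a KL and a K library. The coefficient was 0.958 between the K libraries, 0.963 between the LK libraries, 0.952 between the KL libraries, and 0.945 to 0.949 for the 4 pairs of an LK and a KL library. The KL libraries thus stood farther from K than the LK libraries did. TPM carries no record of read number, so the depth behind each value is unknown.

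Transcripts of 4 β-like globin genes lay lower in every dual-effector library than in both K libraries, and 3 of the genes passed the test. HBE1, the embryonic gene nearest to HS2 (chr11:5289575-5291175), was at 695 and 759 TPM with K. It was at 557 and 458 TPM with LK and at 384 and 361 TPM with KL. All 4 dual libraries were below both K libraries, and the KL pair was below the LK pair. The mean over the dual libraries was 440.1 ± 88.1 TPM (SD, n = 4), or 60.5% of the 727 ± 44.7 TPM (SD, n = 2) with K. HBE1 fell by 0.74 on the log2(TPM + 1) scale (standard error 0.111, 95% interval -0.98 to -0.50; limma, Benjamini-Hochberg adjusted p = 0.0265).

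The 2 γ-globin genes, which encode the β-like chain of fetal hemoglobin, also fell. HBG2 (chr11:5274418-5276011) was at 698 and 581 TPM with K, 365 and 421 TPM with LK, and 222 and 229 TPM with KL. Again no dual library reached a K library, and the LK and KL pairs did not overlap. Its mean with the dual effectors was 48.4% of that with K, a log2 difference of -1.10 (standard error 0.137, limma adjusted p = 0.00695).

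HBG1 (chr11:5269499-5271087) was at 132 TPM in both libraries labelled K, at 70.5 and 64.5 TPM with LK, and at 58.9 and 40.6 TPM with KL. All 4 dual libraries lay far below K, with KL again lowest. HBG1 stood at 44.5% of its K level, a log2 difference of -1.18 (standard error 0.171, limma adjusted p = 0.0231). The γ-globin genes are nearly identical in sequence and reads with several locations were dropped before quantification, so reads from shared stretches are missing from both. Summed, they differed by -1.11 (standard error 0.129, limma adjusted p = 0.00291).

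HBD, which encodes the δ chain of the minor adult hemoglobin (chr11:5254068-5255713), was at 41.1 and 39.1 TPM with K. It was at 22.0 and 19.1 TPM with LK and at 20.3 and 15.2 TPM with KL. The dual and K libraries did not overlap, but the log2 difference of -1.04 did not pass the test over all genes (95% interval -1.50 to -0.58; limma adjusted p = 0.216). HBB, the adult β-globin gene (chr11:5246694-5248301), was listed at 6.36 and 2.64 TPM with K, at 0 and 2.66 TPM with LK, and at 0 and 2.25 TPM with KL. The groups overlapped at this low level, and its log2 difference of -1.48 did not pass (limma adjusted p = 0.647). That value was not stable, at -0.97 without K replicate 1 and -3.06 with a pseudocount of 0.1.

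**Figure D2:**
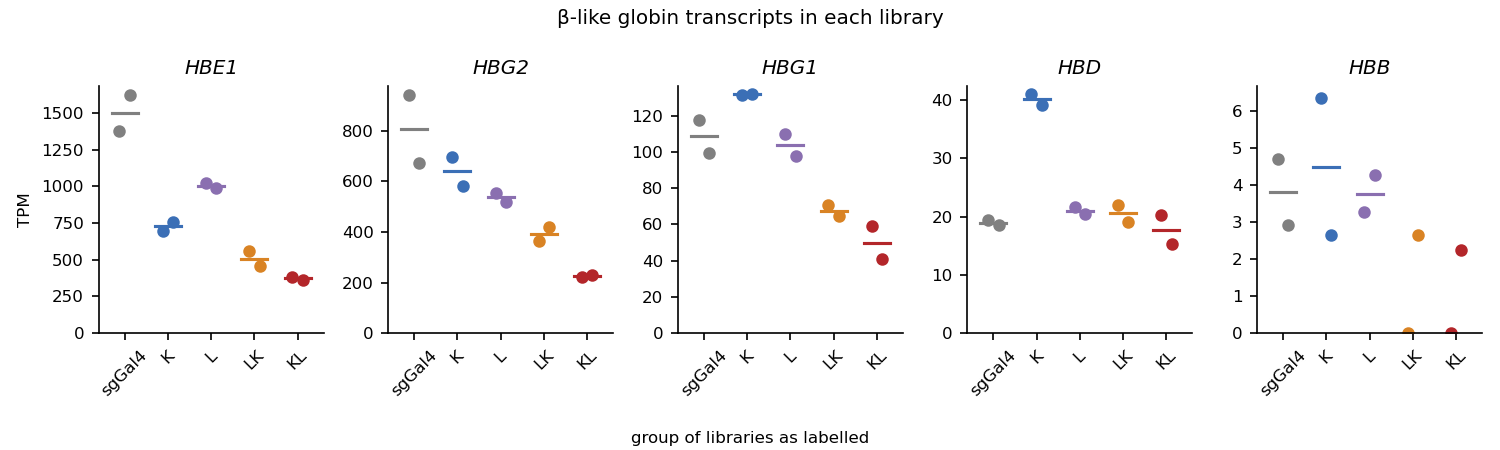
TPM of HBE1, HBG2, HBG1, HBD and HBB in each of the 10 libraries, by labelled group; points are libraries, bars are group means, drawn where both libraries are above 0, and each vertical axis starts at 0. For HBE1, HBG2, HBG1 and HBD all 4 libraries labelled LK or KL sit below both labelled K, and HBD with K also sits above every other group.

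In total 3 of the 5 β-like globin genes were called lower, against 0.0296% of the 10127 genes tested that were called lower, and 0 were called higher. Libraries did not overlap for 4 of the 5, against 8.22% of all tested genes whose 4 dual libraries were all below both K libraries and 6.24% whose dual libraries were all above. The median log2 difference was -1.10 over these 5 genes and -0.02 over all tested genes. Added together, the 5 transcripts came to 1572 and 1513 TPM with K, 1015 and 965.0 TPM with LK, and 686 and 648 TPM with KL. The sum with the dual effectors was 53.7% of that with K, a log2 difference of -0.92 (standard error 0.0853, limma adjusted p = 0.000166). A two-sided exact permutation test of 4 libraries against 2 gave p = 0.133 for the sum and for HBE1, HBG1, HBG2 and HBD (0.156 after adjustment over 7 tests), and 0.267 for HBB. With 15 arrangements, 0.133 is the smallest p this design allows.

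The calls of the single globin genes depended on the fit. After scaling by median-of-ratios size factors, HBE1, HBG1 and HBG2 each had an adjusted p of 0.0929 (limma), and without K replicate 1 or K replicate 2 none of the 3 was called, with HBG2 at adjusted p = 0.278 and 0.0637, HBE1 at 0.278 and 0.658, and HBG1 at 0.298 and 0.449. HBE1 also lost its call without KL replicate 1 (0.0626), KL replicate 2 (0.149) or LK replicate 2 (0.132), and HBG1 without KL replicate 2 (0.0815), LK replicate 1 (0.0677) or LK replicate 2 (0.0939). The sum kept its call in both cases, at adjusted p = 0.0113 with the size factors and 0.0170 and 0.00910 without the K libraries, but not when LK and KL were treated as 1 group (0.378) or when no mean-variance trend was fitted (0.265).

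The composition of the β-like transcripts also varied. HBE1 made up 44.2% and 50.2% of the sum with K, 54.9% and 47.4% with LK, and 56.0% and 55.7% with KL. The ratio of summed γ-globin to HBE1 was 1.19 and 0.939 with K, 0.782 and 1.06 with LK, and 0.732 and 0.745 with KL. The LK and K libraries overlapped in both measures and the KL libraries did not overlap with K.

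Set against the nontargeting control, the globin genes followed different courses. These comparisons share the K, LK and KL libraries with those above, so their values are given only side by side. In sgGal4 replicate 1, mitochondrially encoded genes took up 53.6% of the listed TPM, more than in any other library, against 43.7% in sgGal4 replicate 2. With sgGal4, HBE1 was at 1376 and 1620 TPM, and 48.5% of its mean level was left with K and 29.4% with the dual effectors. Its log2 difference from sgGal4 was -1.04 with K and -1.78 with the dual effectors (limma adjusted p = 0.00296 and 1.02e-06). Thus HBE1 was already below the control with K and lower again with LK and KL.

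HBG2, at 941 and 673 TPM with sgGal4, differed by only -0.32 with K (limma adjusted p = 0.348) and by -1.42 with the dual effectors (adjusted p = 0.000122). HBG1, at 118 and 99.4 TPM with sgGal4, differed by 0.28 with K (limma adjusted p = 0.535) and by -0.90 with the dual effectors (adjusted p = 0.0127). Both γ-globin genes were thus below the control with the dual effectors, and the difference of either from the control with K did not pass.

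HBD followed another course. It was at 19.4 and 18.5 TPM with sgGal4, 1.04 lower on the log2 scale than with K (limma adjusted p = 0.0492), while the dual effectors were within 0.00465 of sgGal4 on that scale. The libraries labelled L, at 21.6 and 20.4 TPM, also lay near the control. Thus HBD was high in the K libraries alone, and a mean below the control was not measured with the dual effectors. Across all genes, 1.62% were called between K and sgGal4 and 2.40% between the dual effectors and sgGal4.

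The libraries labelled K were also compared with those labelled L, the other single effector by label. ZNF10 and KDM1A were both high under the label L and near sgGal4 under the label K. This comparison therefore rests on the labels alone. The difference between L and K was 0.46 for HBE1 (limma adjusted p = 0.368), -0.25 for HBG2 (0.708), -0.35 for HBG1 (0.676) and -0.90 for HBD (0.356). For the sum of the 5 genes it was 0.11 (95% interval -0.10 to 0.32; adjusted p = 0.806). Of all tested genes, 4 (0.0395%) were called between L and K, namely ZNF10, KDM1A, FN1 and TFPI. FN1 and TFPI were picked for naming with their values in view.

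Across all 10127 genes, 4 passed an adjusted p of 0.05 between the dual effectors and K, the 3 globin genes that fell and ZNF10 (0.00987% of genes) that rose. The count was 1 with median-of-ratios size factors and 0 with LK and KL treated as 1 group. At an unadjusted p under 0.05 there were 679 genes, 337 higher and 342 lower. A log2 difference of 1 or more was found for 100 genes upward and 109 downward, of which 3 passed. ZNF10 was higher by 5.12 (standard error 0.284, limma adjusted p = 4.07e-07). The remaining genes came no closer than an adjusted p of 0.104.

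**Figure D3:**
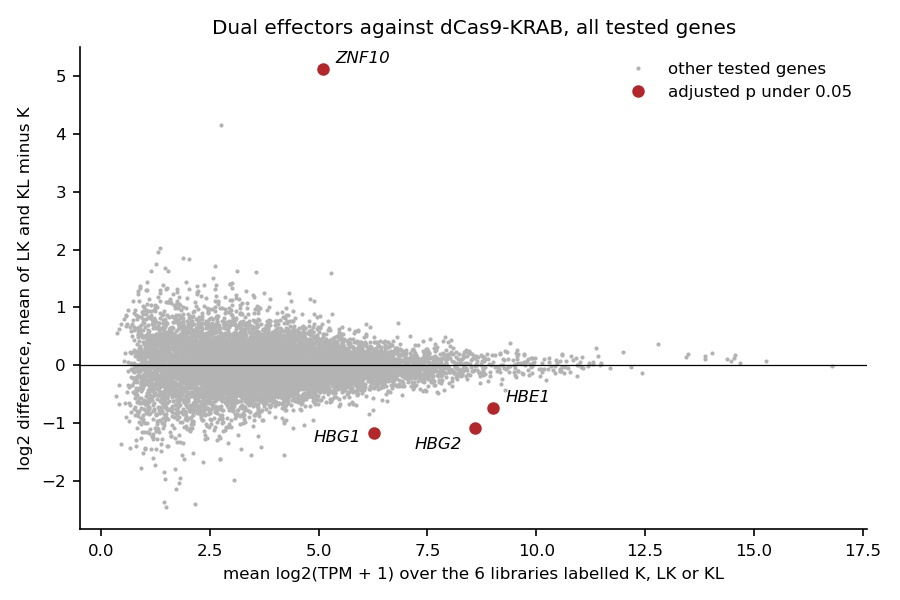
Log2 difference between the mean of the libraries labelled LK and KL and those labelled K (vertical axis) against the mean log2(TPM + 1) over these 6 libraries (horizontal axis) for 10127 genes; red points are the 4 genes with an adjusted p under 0.05. HBE1, HBG1 and HBG2 lie below the cloud of genes of like level, and ZNF10 lies above it.

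Apart from ZNF10, the genes outside the globin cluster with the smallest p in each direction did not pass the test and are given as values. SPARC, which encodes a secreted matrix glycoprotein that platelets also carry, was at 20.0 and 15.6 TPM with K, 32.8 and 46.0 TPM with LK, and 75.0 and 81.3 TPM with KL. All 4 dual libraries were above K and the KL pair was highest. The log2 difference was 1.59 (95% interval 0.98 to 2.19; limma adjusted p = 0.104), and it passed only when genes under a mean of 10 TPM were removed (0.0385) or when the fit held only the 6 libraries (0.0152).

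COTL1, an actin-binding protein of the coactosin type, was at 14.8 and 19.1 TPM with K, 25.9 and 22.7 TPM with LK, and 56.7 and 58.4 TPM with KL (log2 difference 1.11, limma adjusted p = 0.216). RAB8B, a small GTPase of vesicle traffic, was at 20.4 and 11.6 TPM with K, 25.5 and 24.1 TPM with LK, and 47.1 and 52.5 TPM with KL (difference 1.14, adjusted p = 0.330; 1.53 without K replicate 1 and 0.76 without K replicate 2). With sgGal4, COTL1 was at 24.6 and 22.9 TPM and RAB8B at 23.7 and 30.8 TPM, overlapping LK and above K. The difference between K and sgGal4 did not pass for COTL1 (-0.47, limma adjusted p = 0.418) or RAB8B (-0.78, 0.222). SPARC, at 9.23 and 21.6 TPM with sgGal4, overlapped K there. In SPARC, COTL1 and RAB8B alike both KL libraries were above both LK libraries, but the direct test of LK against KL did not pass for SPARC (-0.99, adjusted p = 0.304), COTL1 (-1.21, 0.0729) or RAB8B (-0.98, 0.251).

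APBB2, an adaptor that binds the amyloid precursor protein, differed from this order. It was at 1.06 and 0.46 TPM with K, 5.58 and 4.39 TPM with LK, and 4.84 and 6.23 TPM with KL (log2 difference 1.84, limma adjusted p = 0.280). LK and KL overlapped, and sgGal4, at 5.55 and 3.41 TPM, lay with them. The K libraries were the low ones, together with those labelled L at 1.01 and 0 TPM.

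On the lower side, CRIM1, a membrane protein that binds bone morphogenetic proteins, was at 7.80 and 8.03 TPM with K, 2.10 and 2.40 TPM with LK, and 1.01 and 0.05 TPM with KL (log2 difference -2.04, limma adjusted p = 0.104). ACVR2A, an activin receptor, was at 8.80 and 7.07 TPM with K, 1.18 and 1.58 TPM with LK, and 0.71 and 0.70 TPM with KL (difference -2.14, adjusted p = 0.131). Both sets of dual libraries lay below K without overlap. For ACVR2A the sgGal4 libraries were at 0.70 and 1.39 TPM, within the range of the dual libraries, and the K libraries were the only high ones, 2.14 above sgGal4 (adjusted p = 0.0349).

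The 2 arrangements of the dual effector were then set against K apart. For LK, ZNF10 was the single call, 3.44 higher (limma adjusted p = 0.000508), so that 0.00987% of genes were called higher and 0% lower, with 525 genes at an unadjusted p under 0.05. For KL, 17 genes passed, 9 higher (0.0889%) and 8 lower (0.0790%), with 1010 genes at an unadjusted p under 0.05. The 17 included all 4 genes called for the dual effectors together. Without K replicate 1 or K replicate 2 the KL count was 4, as it was without KL replicate 2, and without KL replicate 1 it was 10.

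HBE1 fell by 0.96 with KL (limma adjusted p = 0.00740) and differed by -0.52 with LK (95% interval -0.80 to -0.25; adjusted p = 0.655). HBG2 fell by 1.49 with KL (limma adjusted p = 0.000634) and differed by -0.70 with LK (95% interval -1.04 to -0.36; adjusted p = 0.655). HBG1 fell by 1.41 with KL (limma adjusted p = 0.00966) and differed by -0.95 with LK (95% interval -1.38 to -0.53; adjusted p = 0.655). In each case the LK interval lay below 0 before adjustment, as did the difference with KL that passed over all genes. With KL, HBG2 kept its call in 14 of 15 alternatives and HBE1 and HBG1 in 11 of 15 each. Without K replicate 1, K replicate 2 or KL replicate 2 the adjusted p with KL was 0.0616, 0.120 and 0.109 for HBE1, and 0.104, 0.120 and 0.122 for HBG1.

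Between LK and KL, 39 of the 10127 genes passed, 19 higher with LK and 20 lower. These included 10 of the 17 genes called for KL against K. The direct test of LK against KL passed for HBG2, 0.80 higher with LK (limma adjusted p = 0.0485), the last call by p. It did not pass for HBE1 (0.44, adjusted p = 0.230), HBG1 (0.46, 0.462), HBD (0.21, 0.856) or HBB (0.09, 0.984). The summed β-like transcripts were at 64.2% of K with LK and 43.2% of K with KL, with limma adjusted p = 0.0700 and 3.37e-05, and their difference between the arrangements passed (0.57, adjusted p = 0.0240). ZNF10 was 3.37 lower with LK than with KL (adjusted p = 0.000321).

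**Figure D4:**
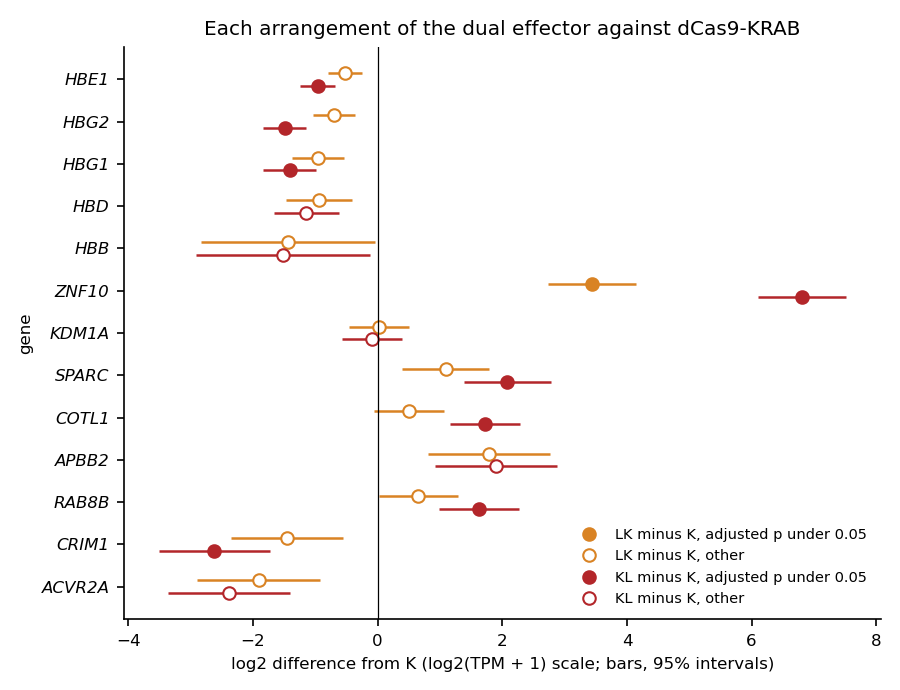
Log2 difference from K on the log2(TPM + 1) scale for LK (orange) and KL (red) with 95% intervals from limma, for the β-like globin genes, the effector genes and the genes with the smallest p outside them; filled points have an adjusted p under 0.05. The KL points of HBE1, HBG2, HBG1, SPARC, COTL1, RAB8B and CRIM1 are filled and the LK points are open, which is not a test of LK against KL.

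Besides the globin genes, ZNF10, SPARC, COTL1, RAB8B and CRIM1, the calls for KL against K were DES, FAM47E, FN1, MUC4, RAB27B, RAP1B, SLC18A2, TC2N and TWIST1, picked for naming with their values in view. FN1, the matrix protein fibronectin, was at 127 and 104 TPM with K and at 28.7 and 27.4 TPM with KL (log2 difference -2.00, limma adjusted p = 0.000170). With LK it was at 209 and 195 TPM, above K, but this difference did not pass (0.80, limma adjusted p = 0.655). With L it was at 31.6 and 31.3 TPM, and with sgGal4 at 103 and 129 TPM. The libraries of the 2 arrangements thus lay on opposite sides of K, and the average of LK and KL showed little of it (-0.60, adjusted p = 0.501). The direct test of LK against KL passed for FN1 (2.80, limma adjusted p = 4.19e-06).

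MUC4, a membrane mucin, was at 26.6 and 23.4 TPM with K, 25.1 and 29.6 TPM with LK, and 6.92 and 8.32 TPM with KL, a log2 difference for KL of -1.59 (limma adjusted p = 0.0156). TWIST1, a basic helix-loop-helix factor of mesenchymal cells, was at 16.9 and 17.3 TPM with K, 17.6 and 9.72 TPM with LK, and 3.03 and 1.41 TPM with KL (-2.54, adjusted p = 0.0115). Both were low in the KL libraries alone among these 6. With L, MUC4 was at 14.9 and 13.1 TPM and TWIST1 at 7.04 and 9.67 TPM, between KL and K. Neither passed between L and K (-0.80, limma adjusted p = 0.488, and -0.97, 0.533). The direct test of LK against KL passed for MUC4 (1.72, limma adjusted p = 0.0109) and TWIST1 (2.18, 0.0224).

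In the other direction, RAP1B, a small GTPase of the RAS family, was at 200 and 178 TPM with K, 178 and 194 TPM with LK, and 337 and 349 TPM with KL (log2 difference for KL 0.86, limma adjusted p = 0.0245). DES, the muscle intermediate filament desmin, was at 15.9 and 12.1 TPM with K, 16.1 and 12.7 TPM with LK, and 40.4 and 40.7 TPM with KL (1.48, adjusted p = 0.0373). SLC18A2, the vesicular monoamine transporter, was at 0 and 0.09 TPM with K and at 7.37 and 6.20 TPM with KL (2.89, adjusted p = 0.0135; 0.000786 without a filter and 0.225 with a pseudocount of 0.1). RAB27B, a GTPase of secretory granules, was at 0.15 and 0 TPM with K and at 5.90 and 8.77 TPM with KL (2.94, adjusted p = 0.0160; 0.0273 without a filter and 0.185 with that pseudocount). Both genes averaged 1 TPM or more only through the KL libraries, and both calls depended on the pseudocount. With L, SLC18A2 and RAB27B were at 0 TPM in both libraries, and RAP1B was at 185 and 154 TPM. DES was at 31.7 and 31.1 TPM with L, between K and KL (L minus K 1.12, limma adjusted p = 0.321). The direct test of LK against KL passed for RAP1B (-0.88, limma adjusted p = 0.0200) and DES (-1.44, 0.0278). It also passed for SLC18A2 (-2.55, 0.0224) and RAB27B (-2.98, 0.0147), which again reached the filter only through KL.

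The KL calls outside the globin genes differed in how well they held. FN1 and ZNF10 kept their calls in all 15 alternatives tried, MUC4 and TWIST1 in 11 of 15 each, and COTL1 in 10 of 15. SPARC kept its call in 9 of 15, RAP1B in 8 of 15, and DES and RAB8B in 5 of 15 each. FAM47E kept its call in 10 of 14, CRIM1, SLC18A2 and RAB27B in 9 of 14 each, and TC2N in 5 of 14. Without K replicate 2 the limma adjusted p was 0.308 for DES and RAB8B, 0.290 for TC2N, 0.288 for RAP1B, 0.120 for SLC18A2 and MUC4, 0.224 for RAB27B and 0.147 for TWIST1.

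The remaining genes were read through 30 lists that hold pathways, cell type markers and complexes, with 431 tested genes in all. In 28 of the lists 0 genes were called, and the exceptions were the β-like globin genes and the KRAB machinery, whose only call was ZNF10. Among the list genes, 44 (10.2%) had an unadjusted p under 0.05, against 6.70% of all tested genes. The medians of the 28 lists ran from -0.57 to 0.45.

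**Figure D5:**
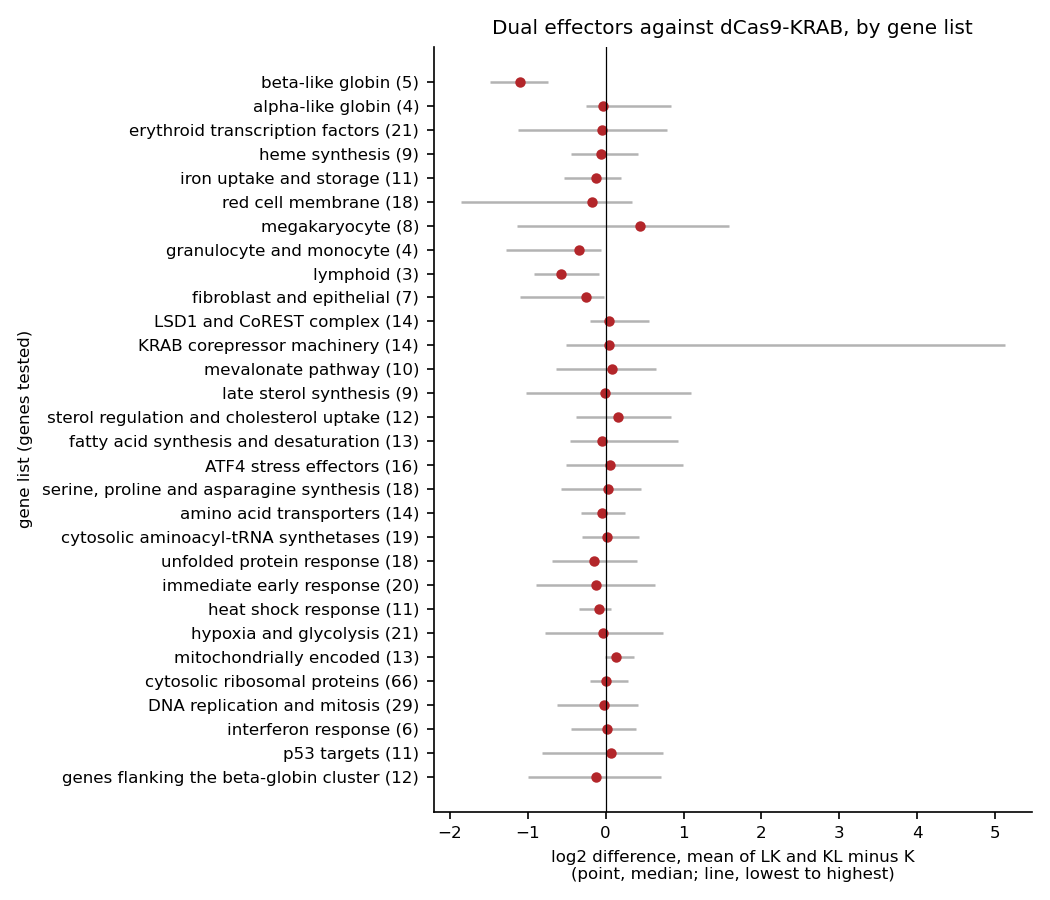
Median (red point) and range (grey line) of the log2 difference between the mean of LK and KL and K for the tested genes of each of 30 lists, with the number of genes tested in parentheses. The β-like globin list lies apart to the left at a median of -1.10, and the range of the KRAB machinery reaches 5.12 through ZNF10 alone.

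The α-like globin genes, on another chromosome, had medians of opposite sign with LK and KL, without a test of the list. Over the 4 tested the median was -0.43 with LK and 0.40 with KL, against a median of -0.03 for the per-gene averages of both, and 0 were called. HBZ, the embryonic α-like gene, was at 1345 and 1340 TPM with K, 799.9 and 829 TPM with LK, and 1457 and 1659 TPM with KL. LK lay below K by a log2 difference of -0.72 (limma adjusted p = 0.655), near that of HBG2 with LK, and KL lay above K by 0.21 (adjusted p = 0.667). The difference of HBZ between the arrangements passed (-0.93, limma adjusted p = 0.0131), and their average differed from K by -0.25 (adjusted p = 0.750). Between LK and KL, HBA1 (-0.86, limma adjusted p = 0.301) and HBA2 (-1.04, 0.641) did not pass. Reads with several locations were dropped for these genes too, and HBA2 was at most 7.92 TPM in any library. The median over 9 heme synthesis enzymes was -0.06, with ALAS2, the erythroid first enzyme of the pathway, at -0.45 (adjusted p = 0.674; -0.27 without K replicate 1 and -0.63 without K replicate 2).

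Erythroid transcription factors had a median of -0.05 over 21 tested genes, 8 positive and 13 negative. SOX6, a repressor of embryonic globin genes, had the smallest p among them, at 11.46 and 10.98 TPM with K, 8.58 and 4.29 TPM with LK, and 2.79 and 4.17 TPM with KL (log2 difference -1.12, limma adjusted p = 0.542). KLF1, an activator of adult β-globin, differed by -0.17 (adjusted p = 0.918) in the average of the arrangements. BCL11A, a repressor of γ-globin, was at 4.58 and 4.75 TPM with K, 1.58 and 3.65 TPM with LK and 9.84 and 10.0 TPM with KL. From K it differed by -0.71 under LK (limma adjusted p = 0.986) and by 0.95 under KL (0.470), and LK and KL differed by -1.66 (adjusted p = 0.135), so the arrangements lay on opposite sides of K and 0 of these passed. In the red cell membrane list 13 of 18 genes were negative and 6 of 18 did not overlap below K, against 8.22% of all tested genes (median -0.17). For iron genes the median was -0.13 over 11, with the transferrin receptor TFRC at -0.47 (adjusted p = 0.638).

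Genes flanking the β-globin cluster had 10 of 12 tested members on the negative side, a median of -0.12 and 0 calls. The olfactory receptor gene OR51B2 was at 10.2 and 10.0 TPM with K, 5.26 and 1.69 TPM with LK, and 8.69 and 4.97 TPM with KL (log2 difference -0.99, limma adjusted p = 0.748). Farther genes of that list, STIM1 and RRM1, differed by 0.08 and -0.13. As 4 of 10127 genes were called in all, 0 calls among 12 does not set these genes apart.

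Among partners of the effectors, ZNF10 was the only call. The LSD1 and CoREST list had a median of 0.04 over 14 genes, with HDAC2, a deacetylase of the complex, at 0.30 (limma adjusted p = 0.836; 0.41 without K replicate 1 and 0.19 without K replicate 2) and the scaffold RCOR1 at -0.20 (adjusted p = 0.951). In the KRAB list, TRIM28 differed by -0.05 (adjusted p = 0.976) and SETDB1 by 0.37 (adjusted p = 0.860), and the median over 14 genes was 0.04.

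Lists of other cell types gave 0 calls. The megakaryocyte list had 8 of its 20 genes tested and a median of -0.12 with LK and 0.78 with KL (0.45 for the average), and SPARC was its gene with the smallest p. Its summed level was 137 and 132 TPM with K, 100.3 and 121 TPM with LK, and 154 and 153 TPM with KL, led by GP1BB, and 7 of its genes were at 0 in all 10 libraries. Of the granulocyte and monocyte list, 4 of 22 genes were tested, all negative in the average of LK and KL (median -0.35), with PRG2, an eosinophil granule protein, at -1.28 (limma adjusted p = 0.509). Over 3 tested lymphoid genes the median was -0.08 with LK and -0.77 with KL. PTPRC, the leukocyte antigen CD45, differed by -1.07 with LK (limma adjusted p = 0.655) and -0.08 with KL (0.951), and CD3D, a T cell receptor chain, by 0.60 (0.999) and -0.77 (0.758). All 3 were negative in the average of the arrangements, with CD3G lowest at -0.92 (0.822). The median of 7 tested fibroblast and epithelial genes was -0.16 with LK and -0.47 with KL, and the list summed to 956 and 834 TPM with K, 1063 and 1051 TPM with LK and 667 and 641 TPM with KL, with LK above K and KL below it. Its gene with the smallest p was KRT19 at -0.55 (adjusted p = 0.647; -0.32 without K replicate 1 and -0.78 without K replicate 2). In bulk libraries fewer cells of a type and less RNA per cell cannot be told apart.

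Lipid pathways showed no call between the dual effectors and K. The median was 0.08 for 10 genes of the mevalonate pathway, which makes isoprenoids and the precursor of cholesterol, -0.01 for 9 late sterol genes (0.28 with LK and -0.36 with KL), 0.16 for 12 genes of sterol regulation and uptake, and -0.04 for 13 fatty acid genes. GGPS1, which makes geranylgeranyl diphosphate, was at 34.2 and 34.7 TPM with K, 40.1 and 46.5 TPM with LK, and 62.3 and 55.7 TPM with KL (log2 difference 0.54, limma adjusted p = 0.552). NPC2, a lysosomal cholesterol carrier, differed by 0.84 (adjusted p = 0.484), HSD17B7 by -1.02 (0.728; -1.37 without LK replicate 1 and -0.67 without LK replicate 2) and the desaturase FADS2 by 0.93 (0.682). From sgGal4, in contrast, the mevalonate median was -1.13 with K and -1.22 with the dual effectors, with 4 and 5 of 10 genes called lower, where 75 and 118 of all 10127 genes were called lower. These values share libraries with the comparison above.

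Amino acid and stress lists held 0 calls, and medians are given for each arrangement without a test of their difference. ATF4 effectors had a median of -0.27 with LK and 0.30 with KL over 16 genes (0.05 for the average), with ERN1, a sensor of unfolded proteins, at 1.00 (limma adjusted p = 0.744; 0.56 without K replicate 1 and 1.43 without K replicate 2). Against sgGal4 the ATF4 medians were -1.13 with K and -1.01 with the dual effectors. Synthesis of serine, proline and asparagine had a median of -0.23 with LK and 0.25 with KL over 18 genes (0.02 for the average), with PHGDH, the first enzyme of serine synthesis, at 0.46 (adjusted p = 0.730). Over 14 amino acid transporters the median was -0.28 with LK and 0.21 with KL (-0.05 for the average), and it was 0.01 for 19 aminoacyl-tRNA synthetases, with SLC38A1 at 0.21 (0.878; 0.30 without K replicate 1 and 0.11 without K replicate 2) and WARS at 0.43 (0.543).

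For the unfolded protein response the median was -0.15 over 18 genes (-0.12 with LK and -0.21 with KL), with the disulfide isomerase PDIA3 at 0.29 (limma adjusted p = 0.722). It was -0.12 over 20 immediate early genes, with the antiproliferative gene BTG2 at -0.90 (0.524), and -0.08 over 11 heat shock genes, of which 10 were negative, with the cochaperone DNAJA1 at -0.34 (0.748). DNAJA1 was at -0.04 without K replicate 1 and at -0.64 without K replicate 2. The heat shock genes summed to 5969 and 4859.7 TPM with K, 5364 and 5159.9 TPM with LK and 4794 and 4589 TPM with KL, so K replicate 1 alone lay above the dual libraries. Hypoxia and glycolysis genes had a median of -0.04 over 21, with the mitophagy receptor BNIP3 at -0.77 (0.618). Interferon genes had a median of -0.32 with LK and 0.16 with KL over 6 (0.02 for the average), with IRF7 at -0.45 (0.896). Targets of p53 had a median of 0.07 over 11, with MDM2, the ligase that turns over p53, at 0.42 (0.697). No list among these held a call.

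Replication and mitosis genes had a median of -0.02 over 29, with the kinetochore motor CENPE at -0.63 (limma adjusted p = 0.681; -0.33 without K replicate 1 and -0.92 without K replicate 2). The cytosolic ribosomal protein genes were centred near 0, with a median of 0.01 over 66 and RPL28 at 0.29 (adjusted p = 0.509). Of the 13 mitochondrially encoded genes, 12 had a positive difference and 7 did not overlap above K, against 6.24% of all tested genes (median 0.13), with MT-ND5, a subunit of complex I, at 0.36 (adjusted p = 0.509). MT-ND5 differed by 0.08 with LK and 0.64 with KL, passed only when the fit held the 6 libraries (adjusted p = 0.0150), and was at 0.23 with quantile normalization. These 13 genes took up 39.9% and 44.3% of the listed TPM with K, 42.78% and 43.99% with LK, and 42.9% and 44.9% with KL. The share overlapped between the groups, K replicate 1 was the lowest library, and with the mitochondrial genes left out the same 4 genes were called for the dual effectors against K.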

How the data were processed

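RNA from K562 cells was read in 10 libraries, 2 for each of 5 labelled groups. Per the submitters' processing notes, reads were aligned to hg19 with STAR (2.5.2b) and quantified with RSEM, and the authors deposited 1 TPM value per gene symbol (20535 symbols) and library. The methods name the Ovation system and the labels a directional poly(A) kit for library preparation. Read depth cannot be recovered from TPM.

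Deposited TPM entered as log2(TPM + 1), keeping the 10127 genes that averaged 1 TPM or more. All 10 libraries entered one limma fit (version 3.58.1, R 4.3.3; 5 group means, 5 residual degrees of freedom, mean-variance trend) with Benjamini-Hochberg adjustment over all genes of a contrast. The scale understates changes of low genes. The summed globin TPM entered as an added gene.

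Named genes were the β-like globin genes, KDM1A and ZNF10, up to 12 genes called without overlap in each direction with the largest difference, filled to 5 by the smallest p, and in each list the called genes or the gene with the smallest p. Other named genes were markers, partners of the effectors, or calls for KL or L. Members and lists were chosen with earlier results of these data known. Alternatives covered the pseudocount, filters, scaling, variance model, groups in the fit, the replicate block and each K, LK or KL library left out. HS2 and gene positions came from GRCh37 and GENCODE 44 (the canonical transcript of each gene), promoters from RefSeq, which matched 1 of the 5 β-like globin genes. Plots used Python 3.11.15, pandas 2.3.3 and matplotlib 3.10.9.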

Additional observations from a re-analysis of the deposited data

Results flagged for a closer look

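HBG2 differed between LK and KL by 0.80 in log2, with LK higher (limma adjusted p = 0.0485), the last call by p. How this contrast depends on the processing is not given here. ZNF10 also differed between them, at -3.37 for LK minus KL (limma adjusted p = 0.000321). HBZ differed by -0.93 (limma adjusted p = 0.0131), with the LK libraries below K and the KL libraries above. These genes are among 39 of the 10127 that passed between LK and KL, where FN1 had the smallest p (2.80, limma adjusted p = 4.19e-06).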

How the results depend on the processing

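Between the dual effectors and K, 4 genes were called. The count was 0 with LK and KL as 1 group, 1 with median-of-ratios size factors, 11 without a filter on low values (1 of the 4 kept) and 2 without a mean-variance trend, and leaving out a library in turn gave 1 to 3. For LK the count of 1 became 2 without a filter, 0 without a trend and 2 with only the 6 libraries fitted. For KL the count of 17 became 29 without a filter and 4 to 14 with a library left out. A library alone in its group was assumed to vary like the others.

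The calls of HBE1 (-0.74), HBG1 (-1.18), HBG2 (-1.10) and ZNF10 (5.12) were lost at unchanged values with LK and KL as 1 group, and those of the 3 globin genes also without a filter or a trend. With size factors the values were -0.72, -1.16 and -1.07, and HBG1 also lost its call with quantile normalization (-1.13). With a library left out, HBE1 ran from -0.81 to -0.67, HBG1 from -1.31 to -1.05 and HBG2 from -1.23 to -0.96. Over 16 alternatives the call was kept in 7 for HBE1, 6 for HBG1, 10 for HBG2 and 15 for ZNF10. The sum of the 5 globin genes (-0.92) lost its call with LK and KL as 1 group (adjusted p = 0.378) and without a trend (0.265), and kept it in 14. The median of all genes was -0.12 without K replicate 2 and 0.07 without K replicate 1.

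KDM1A, near 0 throughout, changed sign without K replicate 1 (0.00635) and without LK replicate 1 (0.00640), and was -0.0696 without LK replicate 2. With the replicate block, 5 genes were called for the dual effectors, the 4 and EPSTI1, named after its values were seen, against 1 for LK and 16 for KL, with the sum at -0.92. Deviations of same-numbered libraries had correlations from -0.0213 to 0.0229, so the numbers did not pair the libraries.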
